A study of Mus musculus with 2 samples.

Results

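Open chromatin was described at 10 immediate early transcription factor genes, whose transcripts are often read as a record of recent neuronal activity: Fos, Fosb, Fosl2, Jun, Junb, Egr1, Egr2, Egr3, Egr4 and Npas4. The genes were chosen by name, and they are 10 of 21755 annotated protein-coding genes outside the Y chromosome. For each gene, every peak of DNase I cutting, every footprint and every run of bases with a listed false discovery rate (FDR) was collected in the gene body and 50 kb on each side. DNase I cuts open chromatin, a peak is a place where cuts pile up, and a footprint is a short stretch inside open chromatin that was cut less, as under a bound protein. The data are 2 DNase-seq libraries of 1 group, from tissue that the labels call a layer of the hippocampus without naming the layer. Both come from B6CASTF1/J mice, F1 hybrids of C57BL/6J and the wild-derived CAST strain, labelled male and 25 days old, with no treatment given. The tissue samples carry separate entries under a single donor entry, so the labels do not show separate animals. The libraries differed at sex-linked genes, as given below. Their spread may be technical or include differences between animals and sexes, which was not tested. There was no second condition and no test between groups was possible. Values are therefore given per library and as mean ± SD (n = 2), and pairs of values stand in the order replicate 1, then the library labelled male replicate 2.

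Immediate early genes are switched on within minutes of a stimulus, without new protein synthesis, from promoters that are kept ready. In neurons, calcium entry and kinase cascades act on proteins already bound there. Serum response factor (SRF) with its ELK and MRTF partners binds the serum response element (SRE), CREB binds the cyclic AMP response element (CRE), and MEF2 proteins bind a site of their own. The products are themselves transcription factors. FOS and JUN proteins pair as the AP-1 complex, EGR proteins are zinc finger factors that bind GC-rich sites, and NPAS4 is a neuronal factor that pairs with ARNT proteins and is induced by calcium.

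The libraries held 93545 and 79144 peaks and 223251 and 170016 footprints, and the number of cuts behind any peak is unknown. Of 24 genes listed as markers of hippocampal and other cell types, 13 had a promoter peak in both libraries, as did 63.2% of all protein-coding genes. These included the dentate marker Prox1, the CA1 markers Wfs1 and Pou3f1, the CA3 marker Grik4 and the neuronal genes Slc17a7 and Camk2a. Genes with no promoter peak in either library included Aqp4, Mog, Cx3cr1, Trem2, C1qa, Cldn5 and the liver gene Alb, while Gfap, Slc1a3 and Mbp of glia had one in both. Neurod2 and the inhibitory neuron gene Gad2 had one in replicate 1 alone and Pecam1 in the other library alone. The other listed marker of inhibitory neurons had one in both libraries. Sex-linked genes did not match the label of the library labelled male replicate 2: Xist had 0 and 4 peaks, while Ddx3y, Kdm5d and Eif2s3y had peaks in replicate 1 alone. Uty had 1 and 2 peaks, with highest values of 0.678 and 0.0774, where the medians over all peaks were 0.657 and 0.651. In bulk tissue, fewer cells with an open site and less opening per cell cannot be told apart.

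All 10 genes had a peak within 1 kb of an annotated transcription start site (TSS) in both libraries, where 63.2% of all protein-coding genes did. A gene can have several annotated TSSs. Distances of peaks and sites below are from the main one, the most upstream among the gene's basic protein-coding transcripts in GENCODE. The highest promoter peak value of a gene is used below as its promoter value. It is the authors' signal, whose scaling is not stated. The median over the 10 genes was 2.88 and 2.57, against 2.22 and 2.11 over the 13742 genes that had such a peak in each library. Egr1 was highest at 4.57 ± 0.464, and its lower library lay above the higher library of every other member. Jun came next, within the range of Fosb, and Junb overlapped Fosb but not Jun. Fosl2 lay within the range of Fos. Egr4, Egr2, Egr3 and Npas4 had the lowest means, and each overlapped its neighbours in that order. Replicate 1 had the higher value for 8 of the 10 genes, with Egr4 and Npas4 as exceptions, and for 65.7% of all genes.

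**Figure D1:**
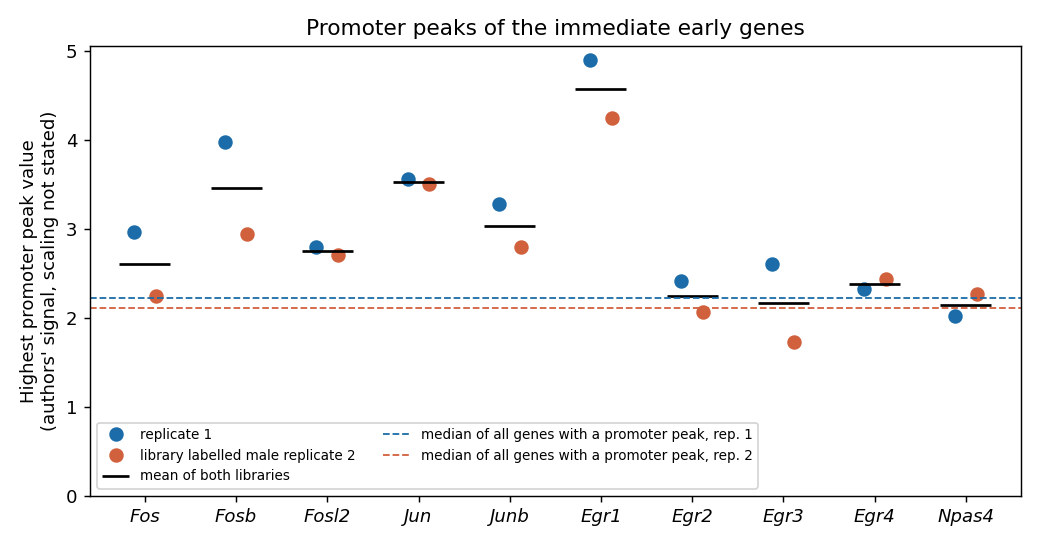
Highest promoter peak value (authors' signal, vertical axis) of each gene in each library (points) with the mean of both (black bars) and, as dashed lines, the medians of 2.22 and 2.11 over all genes that had such a peak in each library. Egr1 sits highest at 4.90 and 4.24, and Npas4, Egr3 and Egr2 each have a library below both lines.

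Fos, the founding member of the AP-1 family, lies at chr12:85473890-85477273 on the plus strand (mm10), with no other protein-coding TSS in its window. Its promoter value was 2.97 in replicate 1 and 2.25 in the other library (2.61 ± 0.508). Both peaks lay just upstream of the start, from -329 to -50 bp and from -349 to -90 bp, and each held 5 footprints. The 300 bases from -349 to -50 bp are printed because an SRE and several CRE core sites (TGACG, the first bases of the CRE) lie in them. The sequence is chr12:85473541-85473840, plus strand, read from GRCm38, and capitals mark bases inside a footprint in both libraries.
Fos promoter: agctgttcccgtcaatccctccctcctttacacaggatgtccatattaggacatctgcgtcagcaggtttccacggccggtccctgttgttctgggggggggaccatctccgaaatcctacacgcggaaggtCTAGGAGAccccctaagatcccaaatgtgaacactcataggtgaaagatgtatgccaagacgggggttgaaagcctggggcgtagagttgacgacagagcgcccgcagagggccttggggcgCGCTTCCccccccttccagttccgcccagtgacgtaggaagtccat
The SRE is at position 41 of the printed run, -309 bp from the TSS, and CRE core sites are at positions 10, 58, 221 and 284 counting both strands. The stretches in capitals, 15 bases in all, overlap none of them.

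Distal open regions lay on both sides of Fos. A distal peak is one that overlaps no window of 1 kb around a protein-coding TSS, and overlapping distal peaks of both libraries were joined into a shared region. Fos had 9 distal peaks in each library and 8 shared regions, and all 8 were closer to Fos than to any other protein-coding TSS. They lay at -37.7, -36.5, -18.5, -5.91 and -1.66 kb upstream and at 12.3, 14.0 and 23.1 kb downstream of the TSS. Every one was intergenic. The region at 12.3 kb had values of 2.79 and 3.36 (3.08 ± 0.406), and that at -18.5 kb had 2.73 and 2.90. Both were lower than the Fos promoter in replicate 1 and higher than it in the library labelled male replicate 2. The farthest, at -37.7 and 23.1 kb, had 1.60 and 1.40 and 0.968 and 1.17. The weakest, at -36.5 kb, had 0.488 and 0.329.

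The strongest downstream Fos region is printed because it holds an SRE and an EGR site (GCGNGGGCG) whose middle bases lie in footprints in both libraries. The strongest upstream region is printed beside it for its CRE core sites. They are the 200 bases around the middle of each region, chr12:85486091-85486290 and chr12:85455311-85455510, plus strand of GRCm38, with the same meaning of capitals.
Fos 12.3 kb: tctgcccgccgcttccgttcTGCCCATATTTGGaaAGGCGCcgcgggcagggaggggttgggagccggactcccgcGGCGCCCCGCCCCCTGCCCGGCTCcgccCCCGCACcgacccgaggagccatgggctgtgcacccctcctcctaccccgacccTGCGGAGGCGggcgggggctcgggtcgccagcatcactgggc
Fos -18.5 kb: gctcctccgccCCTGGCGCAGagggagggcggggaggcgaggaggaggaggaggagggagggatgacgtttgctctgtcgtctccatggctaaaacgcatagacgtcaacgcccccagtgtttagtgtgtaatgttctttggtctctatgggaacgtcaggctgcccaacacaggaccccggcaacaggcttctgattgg
In the first, the SRE starts at position 24 and lies whole in capitals, and the EGR site, read on the minus strand, starts at position 101 and lies partly in capitals. Capitals cover 60 of its 200 bases. In the second, CRE core sites start at positions 64, 104 and 155, all outside the 10 bases in capitals.

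Fosb, the FOS family member whose truncated product accumulates on repeated stimulation, lies at chr7:19302696-19310051 on the minus strand, among 6 other protein-coding genes with a TSS in its window. Promoter values were 3.97 and 2.95 (3.46 ± 0.725), the widest spread among the 10. The promoter peak ran from -429 to 10 bp and from -489 to 10 bp with 8 and 11 footprints. Fosb had 14 and 15 distal peaks and 12 shared distal regions, the most of any member, of which 7 were nearest to Fosb. Those nearest to it included the region at -9.99 kb, with values of 2.22 and 3.11, and one in its own UTR at 6.08 kb, with 1.41 and 1.77. The 2 strongest lay nearer to neighbours. The region at 14.0 kb, in a UTR of Rtn2, had 3.57 and 4.03 (3.80 ± 0.325), the highest mean of all shared distal regions of the members. The region at -32.8 kb, nearest to the DNA repair gene Ercc1, had 3.14 and 3.09 and ranked next, followed by the Fos region at 12.3 kb. The farthest upstream, at -33.5 kb, had 1.46 and 1.62. From the region at -32.8 kb the middle 200 bases, chr7:19342731-19342930 on the minus strand, are printed because more of them lay in footprints of both libraries, 63 bases in capitals, than in any other distal stretch printed here.
Fosb -32.8 kb: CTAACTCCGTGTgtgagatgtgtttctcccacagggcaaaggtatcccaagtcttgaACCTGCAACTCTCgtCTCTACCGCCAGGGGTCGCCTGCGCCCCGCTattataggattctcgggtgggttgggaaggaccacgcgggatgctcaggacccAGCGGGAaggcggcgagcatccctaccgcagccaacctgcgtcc

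Fosl2, which encodes the slower FOS family member FRA-2, lies at chr5:32135801-32157842 on the plus strand and is the longest member, with no other protein-coding TSS in its window. At the promoter the values were 2.80 and 2.71 (2.75 ± 0.0643), and the promoter peak spanned the start from -520 to 279 bp and from -520 to 159 bp. Each library had 9 footprints there. Of 5 shared distal regions, the pair at -2.47 kb (1.43 and 1.13) and -1.23 kb (0.692 and 0.645) were nearest to Fosl2. The strongest shared region, at 62.1 kb, had values of 1.81 and 2.73 and was nearest to the phospholipase gene Plb1. The farthest regions, at -33.2 kb and 71.1 kb, had mean values of 0.449 and 0.586. Peaks covered 3.36% and 3.20% of the long Fosl2 body.

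Jun, the main partner of FOS proteins, lies at chr4:95049034-95052222 on the minus strand, again with no other protein-coding TSS in its window. The promoter reached 3.55 and 3.51 (3.53 ± 0.0338), the smallest spread of the 10 genes. The strongest peak lay upstream of the start, from -478 to -419 bp and from -578 to -339 bp. It was 60 bp wide with 1 footprint in replicate 1 and 240 bp wide with 7 in the other library. A peak over the start had nearly the same value, 3.44 and 3.49, and held 7 and 8 footprints. Of the 37 and 27 footprints in the Jun window, 20 and 25 lay inside peaks. Jun had 3 and 6 distal peaks and 2 shared distal regions. One lay in its coding exon at 1.67 kb (1.79 and 1.48), and the other at 43.9 kb (1.38 and 1.41) was nearest to Mysm1. The Jun promoter is printed because 77 of its 280 bases lay in footprints of both libraries, the most among the members' RefSeq promoters printed here. It is the minus strand of chr4:95052193-95052472, from -250 to 29 bp, from RefSeq on GRCm38, with capitals as before.
Jun promoter: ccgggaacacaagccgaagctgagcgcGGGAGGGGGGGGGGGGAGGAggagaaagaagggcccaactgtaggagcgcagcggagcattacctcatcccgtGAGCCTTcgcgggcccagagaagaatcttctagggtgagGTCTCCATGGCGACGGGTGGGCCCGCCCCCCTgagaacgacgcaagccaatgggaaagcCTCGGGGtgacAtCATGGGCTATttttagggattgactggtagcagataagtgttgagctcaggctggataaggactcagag
A MEF2 site starts at position 218, -33 bp from the TSS. It was the sole MEF2 site in the 8 member promoters listed by RefSeq, and 0.475% of 16433 promoters held one. Its middle base lay in a footprint in the library labelled male replicate 2 and not in replicate 1, although a footprint touched the site in each library.

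Junb lies at chr8:84974484-84978718 on the minus strand, in the most crowded window, with 9 other protein-coding genes. JUNB pairs with FOS proteins and can act against JUN. Its promoter value was 3.28 and 2.79 (3.03 ± 0.345). In replicate 1 the strongest peak spanned the start, from -242 to 397 bp, while in the other library it lay from 1938 to 2257 bp, downstream and inside the annotated gene. The middle of that downstream peak was 79 bp from another annotated Junb TSS. At the main TSS alone the values were 3.28 and 2.54. An SRE at 2085 bp, in that downstream peak, had its middle base in a footprint in both libraries. Junb had 6 distal peaks in each library and 4 shared regions, none of them nearest to Junb. The strongest, at -7.33 kb and nearest to Hook2, had 3.31 and 2.81 (3.06 ± 0.351), close to the promoter values, and the farthest downstream, at 43.0 kb in an intron of Mast1, had 0.565 and 0.471. The Junb promoter, the minus strand of chr8:84978719-84978998 from -280 to -1 bp (RefSeq, GRCm38), is printed because its TATA box (TATAAA) lay in a footprint of both libraries.
Junb promoter: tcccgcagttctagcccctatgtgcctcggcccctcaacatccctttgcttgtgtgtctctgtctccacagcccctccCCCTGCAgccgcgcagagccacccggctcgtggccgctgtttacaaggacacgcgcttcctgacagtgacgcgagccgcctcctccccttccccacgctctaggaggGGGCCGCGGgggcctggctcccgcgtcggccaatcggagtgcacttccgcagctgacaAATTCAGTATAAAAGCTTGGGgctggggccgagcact
The TATA box starts at position 251, -30 bp from the TSS, inside a run of capitals. The exact letters TATAAA were found in 2 of 8 member promoters, Junb and Fos, and in 12.9% of all promoters. Variants of these letters were not searched.

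Egr2, which encodes a factor also needed for hindbrain and myelin development, lies at chr10:67535475-67542188 on the plus strand. The Egr2 promoter value was 2.42 and 2.07 (2.24 ± 0.246), from -408 to -9 bp and from -428 to -29 bp, with 3 and 7 footprints. Around its annotated starts it had 6 and 8 promoter peaks. Away from the TSS it had the fewest distal peaks, 1 and 4, and it was the only member with no region distal in both libraries. The Egr2 promoter is printed because it was the only one of 8 member promoters of RefSeq to hold an SRE within 250 bases before to 50 after the start. It is the plus strand of chr10:67537619-67537898, from -250 to 29 bp.
Egr2 promoter: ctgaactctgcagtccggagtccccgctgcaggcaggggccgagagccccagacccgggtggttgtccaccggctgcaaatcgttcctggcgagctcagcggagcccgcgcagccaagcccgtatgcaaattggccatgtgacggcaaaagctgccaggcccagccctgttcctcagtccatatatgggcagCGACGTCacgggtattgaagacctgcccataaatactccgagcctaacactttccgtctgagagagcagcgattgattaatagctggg
The SRE starts at position 179, -72 bp from the TSS. A CRE core site starts at position 196, -55 bp from the TSS, and all but its last printed base lies in the 7 bases in capitals, which were in footprints of both libraries.

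Egr4, another EGR gene, lies at chr6:85511121-85513589 on the minus strand and is the shortest member. Its promoter value was 2.32 and 2.44 (2.38 ± 0.0840), with a peak across the start from -211 to 188 bp and from -271 to 68 bp and 6 and 4 footprints. Peaks covered 87.2% and 54.8% of the gene body, the highest share of the 10 in replicate 1. Of 5 shared distal regions all were nearest to Egr4, and 2 had their middle inside the gene. The strongest, at 2.92 kb just past the gene's end, had 1.03 and 1.14, and the farthest upstream, at -31.2 kb, had 0.636 and 0.761. The Egr4 promoter, the minus strand of chr6:85513560-85513839 from -250 to 29 bp (RefSeq, GRCm38), is printed for its CRE core site under footprints.
Egr4 promoter: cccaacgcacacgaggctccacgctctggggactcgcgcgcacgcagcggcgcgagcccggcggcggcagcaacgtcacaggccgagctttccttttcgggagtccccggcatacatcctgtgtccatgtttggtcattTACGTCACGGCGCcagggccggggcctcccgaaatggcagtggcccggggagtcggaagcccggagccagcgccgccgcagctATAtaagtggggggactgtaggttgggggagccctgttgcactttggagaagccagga
The CRE core sites start at positions 74 and 142, -177 and -109 bp from the TSS, and the one at -109 bp lies whole in capitals.

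Npas4, expressed mainly in neurons, lies at chr19:4984355-4990316 on the minus strand with 5 other protein-coding genes starting in its window. The Npas4 promoter value was 2.02 and 2.26 (2.14 ± 0.171), the lowest mean of the 10. The strongest peak lay downstream of the main GENCODE start, from 236 to 715 bp and from 216 to 495 bp, and RefSeq places the start inside it. It held 3 and 6 footprints. Npas4 had 2 and 6 distal peaks. The 2 shared regions were both upstream and nearest to Npas4, at -2.78 kb (0.947 and 0.844) and -11.7 kb (2.64 and 1.92, 2.28 ± 0.510). The mean of the region at -11.7 kb was above that of the promoter, although both promoter values lay between those of that region. The RefSeq promoter of Npas4 is printed for the footprinted AT-rich stretch just before the RefSeq start and for its CRE core sites. It is the minus strand of chr19:4989942-4990221, from 95 to 374 bp of the GENCODE start.
Npas4 promoter: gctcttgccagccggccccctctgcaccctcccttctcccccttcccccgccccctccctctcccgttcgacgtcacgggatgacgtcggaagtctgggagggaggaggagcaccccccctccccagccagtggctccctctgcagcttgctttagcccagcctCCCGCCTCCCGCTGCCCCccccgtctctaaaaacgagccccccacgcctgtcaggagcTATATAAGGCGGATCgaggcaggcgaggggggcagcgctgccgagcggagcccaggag
CRE core sites start at positions 72 and 82, outside the capitals and outside any peak in both libraries. In all, 33 bases of the printed run lay in footprints of both libraries.

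SRE sites were frequent in the members' promoter peaks. Of the 10 genes, 7 held an SRE in a promoter peak of at least 1 library, 12 sites in all, and Fosl2, Jun and Egr4 held none. The share of all genes with an SRE in a promoter peak was not counted. An SRE was present in 17.1% and 16.3% of the members' 41 and 43 promoter peaks, against 1.03% and 0.953% of all 29262 and 27073 promoter peaks. The members' promoter peaks were somewhat wider, with median widths of 400 and 320 bp against 340 and 280 bp. The sites of 5 members are printed with 10 bases on each side on the strand of the gene, read from GRCm38, and here capitals mark the SRE.
Fos SRE at -309 bp, chr12:85473571-85473600: cacaggatgtCCATATTAGGacatctgcgt
Fosb SRE at -266 bp, chr7:19310298-19310327: tggccgagctCCTTATATGGctaattgcgt
Junb SRE at -1450 bp, chr8:84980149-84980178: cttcctgtgcCCTAATATGGgtgctgggga
Junb SRE at 2085 bp, chr8:84976614-84976643: gaagctctgcCCATATATGGgcctattcag
Egr2 SRE at -375 bp, chr10:67537484-67537513: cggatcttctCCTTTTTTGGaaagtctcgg
Egr2 SRE at -72 bp, chr10:67537787-67537816: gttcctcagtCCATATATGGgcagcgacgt
Npas4 SRE at -615 bp, chr19:4990912-4990941: ggattcctgtCCTAATATGGagctgggatt
Distances are to the first base of the element. The Fos, Fosb and both Egr2 sites lay in a promoter peak in both libraries, as did the Junb site at 2085 bp. The Junb site at -1450 bp lay in one in the library labelled male replicate 2 alone, and the Npas4 site in replicate 1 alone.

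How many SRE sites met a footprint depended on the rule. The middle base of the site lay in a footprint for 1 of 9 sites in the members' promoter peaks in replicate 1 and for 2 of 10 in the other library. Over all promoter peaks those shares were 4.81% of 291 sites and 9.30% of 258 sites. A footprint touched at least 1 base of the site for 4 of 9 and 5 of 10, against 15.8% and 20.5% over all promoter peaks. Sites touched in both libraries were at Junb (2085 bp), Fosb (-266 bp) and Egr1 (1031 and 1301 bp). The full CRE (TGACGTCA) was in none of the members' promoter peaks, and in 1.85% and 2.07% of all. CRE core sites were in 41.5% and 39.5% of the members' promoter peaks, against 27.0% and 26.1% of all. Each of the 10 genes had at least 1 over all its promoter peaks, but the share of all genes with one was not counted. EGR sites were in 14.6% and 16.3%, against 11.1% and 11.2%. All motifs were searched on both strands, and a CRE core site is also part of every full CRE. Over the 9 motifs together, 20.4% and 17.1% of sites in the members' promoter peaks had their middle base in a footprint, against 20.8% and 21.8% over all promoter peaks. With any base counted, 31.5% and 27.9% did, against 26.8% and 28.1%.

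**Figure D2:**
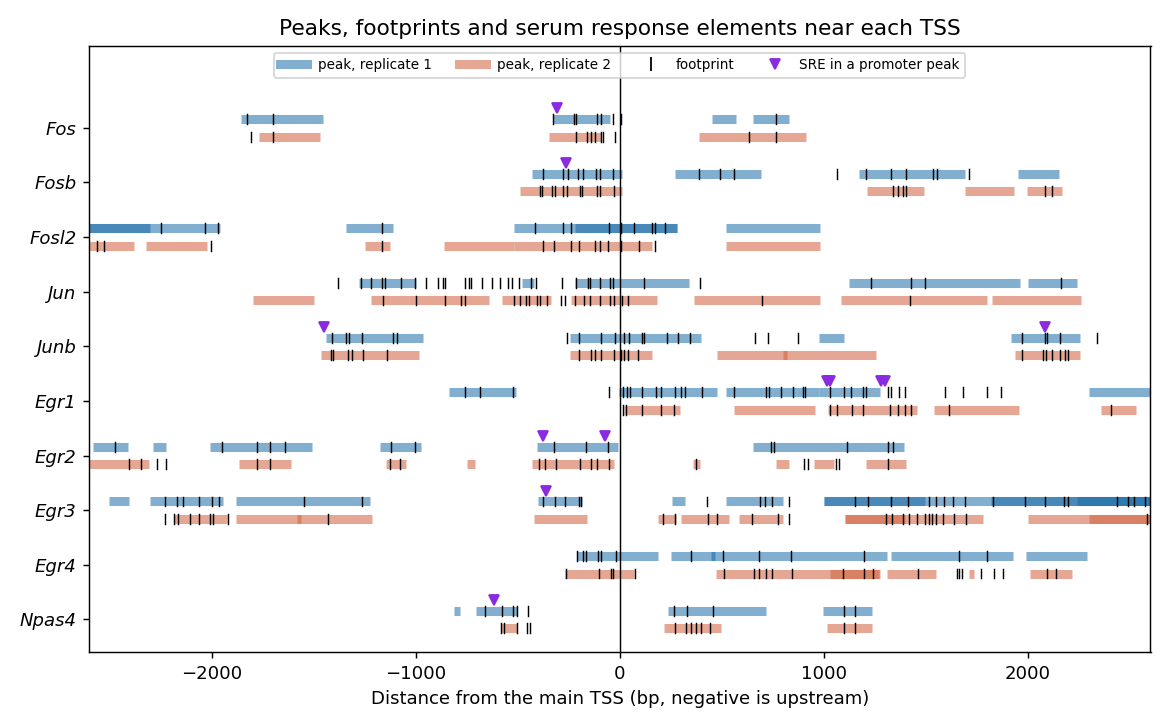
Peaks (bars), footprints (ticks) and SRE sites in promoter peaks (triangles) within 2.6 kb of the main TSS of each gene, replicate 1 above and the library labelled male replicate 2 below, with distance in bp on the horizontal axis. Triangles stand in 7 of 10 genes, and the middle base of the Junb site at 2085 bp lies in a footprint in both libraries.

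In the 8 members listed in RefSeq's promoter table, with 250 bases before and 50 after the start, CRE core sites were in 6 promoters and in 24.3% of 16433 promoters. SP sites (GGGCGG) were in 5 and in 48.0%, NPAS4 sites (TCGTG) in 3 and in 18.04%, EGR sites in 2 and in 7.84%, and an SRE in 1 and in 1.55%. No AP-1 site (TGANTCA) was found, against 7.06% of promoters. With 500 bases before and 100 after the start, SRE sites were in 3 of 8, those of Fos, Fosb and Egr2, and in 3.01% of promoters. Egr1 and Egr3 are not among the 8.

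The strongest promoter peak held a footprint in both libraries for 9 of the 10 genes, as it did for 95% of the genes with promoter peaks in both. Egr3 was the exception, with 5 footprints in replicate 1 and none (0) in the other library. Per kb of peak, the members had a median of 16.1 and 18.7 footprints, against 12.8 and 12.5 over all genes. The whole windows held 552 and 480 footprints. Of these, 40.9% and 46.0% overlapped a footprint of the other library, against 29.99% and 39.4% of all footprints.

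Egr1, which encodes a zinc finger factor widely used as a marker of neuronal activity, is on chromosome 18 from 34859823 to 34864984 on the plus strand. Its promoter value of 4.90 and 4.24 placed it above 97.9% and 96.4% of genes with a promoter peak. The strongest peak lay inside the annotated gene, from 978 to 1277 bp and from 1018 to 1457 bp, with 5 and 8 footprints. Its middle was 256 and 146 bp upstream of another annotated Egr1 TSS. SRE sites were at 1015, 1031, 1279 and 1301 bp, between the main TSS and that one, and were the most of any member. It had 16 and 12 distal peaks, more in replicate 1, and 8 shared regions, of which 5 were nearest to Egr1. The strongest, at 27.5 kb, had 2.39 and 2.24 (2.32 ± 0.103). Upstream, 3 shared regions lay between -9.53 and -4.39 kb with mean values from 0.854 to 1.32. A group of 3 at 41.0, 41.6 and 42.1 kb was nearest to Etf1, with mean values of 0.593, 0.750 and 0.406.

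Egr3, a close relative of Egr1 with a role in muscle spindles and synaptic plasticity, is on chromosome 14 from 70077203 to 70082614 on the plus strand. Its promoter value was 2.60 and 1.73 (2.16 ± 0.617), the largest relative difference of the 10, higher in replicate 1 by 0.59 on the log2 scale. The median difference over all genes was 0.11. That peak lay from -402 to -183 bp and from -422 to -163 bp, and it held an SRE at -360 bp in both libraries. A region at -2.11 kb, counted as distal, was stronger than the promoter in both libraries, with 2.93 and 2.31 (2.62 ± 0.442). Of 6 shared distal regions 5 were nearest to Egr3, and those farthest upstream, at -36.2 and -23.7 kb, lay in introns of Pebp4. The farthest downstream, at 19.3 kb, was nearest to Bin3 and had 1.38 and 1.24. Around the TSS, Egr3 had 7 and 8 promoter peaks, and several of the 7 in replicate 1 overlapped one another.

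Peaks ran deep into the bodies of these short genes. The median share of the gene body inside peaks was 24.3% and 26.1%. Over 1770 genes as long as the 9 shorter members and open at the promoter in both libraries it was 7.89% and 6.32%. By the mean of both libraries the widest cover was at Egr4, followed by Jun at 44.6% and 66.4%, Egr3 at 48.3% and 43.4% and Egr1 at 49.2% and 33.2%. Junb had 20.3% and 34.4%, Egr2 28.4% and 19.0%. Fos at 8.87% and 15.5%, Npas4 at 12.1% and 8.39% and Fosb at 18.6% and 12.3% were lower, and Fosl2 was lowest. The order of the libraries differed between genes, with Fos, Jun and Junb higher in the library labelled male replicate 2 and the others higher in replicate 1.

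**Figure D3:**
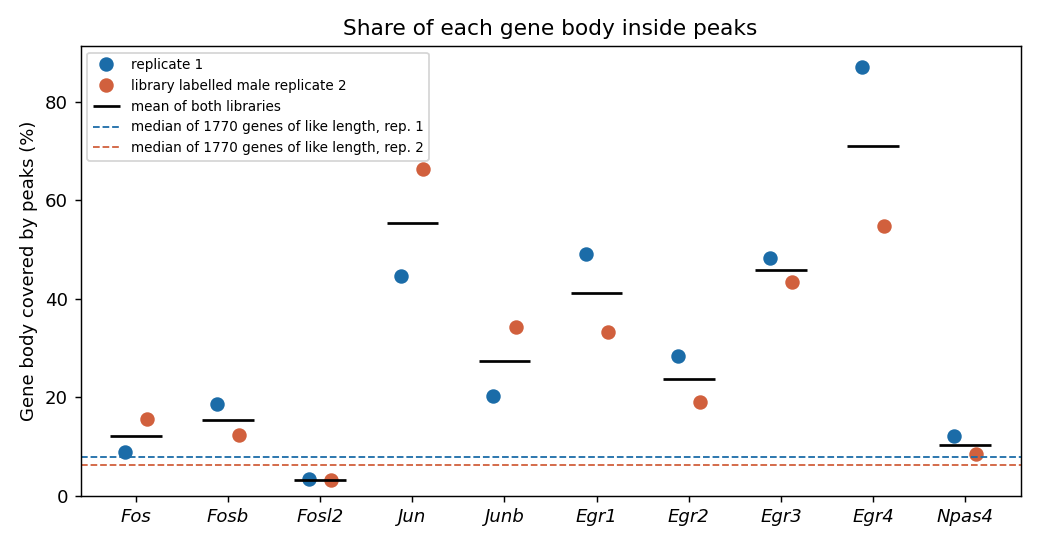
Percent of each gene body inside peaks (vertical axis) in each library (points), with the mean of both (black bars) and, as dashed lines, the medians of 7.89% and 6.32% over 1770 genes as long as the 9 members other than Fosl2. All members other than Fosl2 lie above both lines in each library.

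Windows of the members held 156 and 168 peaks, counting each one where peaks of the same library overlapped. Of these, 41 and 43 were at the member's own promoters, 40 and 38 at promoters of other genes and 75 and 87 were distal. The median number of distal peaks per window was 7.5 and 8, against 3 and 3 over all protein-coding genes and 4 and 4 over those whose promoter was open in both libraries. The members differed widely among themselves. Fosb and Egr1 had means of 14.5 ± 0.707 and 14.0 ± 2.83 distal peaks, followed by Egr3 and Egr4 at 10 ± 1.41 and Fos at 9. Egr2 had 2.5 ± 2.12. In replicate 1, Egr1 had more distal peaks than 94.5% of genes and Egr2 more than 16.7%. In the library labelled male replicate 2 the shares were 95.0% and 58.4%. Distal peaks in the members' windows had median values of 0.968 and 0.819, against 0.551 and 0.548 over all distal peaks.

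**Figure D4:**
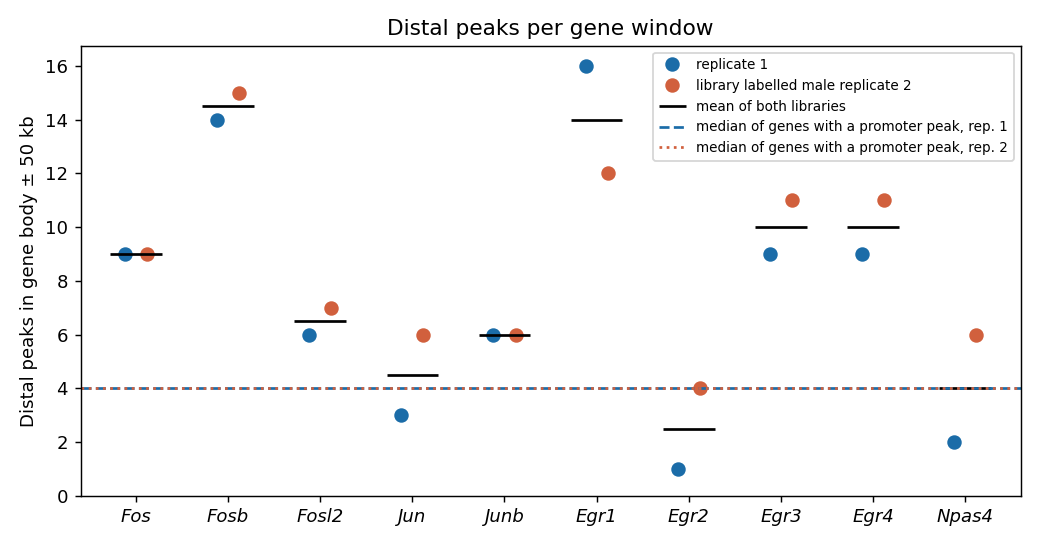
Number of distal peaks in the gene body and 50 kb on each side (vertical axis) in each library (points), with the mean of both (black bars) and the median of 4 in each library over genes with a promoter peak as dashed and dotted lines. Fosb and Egr1 sit at 12 to 16 and Egr2 at 1 and 4.

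Most distal peaks near these genes were found in both libraries. A partner in the other library, overlapping by at least 1 bp, was found for 58 of 75 peaks (77.3%) in replicate 1, against 51.5% of all distal peaks. For the library labelled male replicate 2 it was 62 of 87 (71.3%), against 64.7%. Of the peaks without a partner, 3 of 17 and 5 of 25 touched a run of bases of the other library whose FDR was under 0.05, against 9.89% and 15.6% of all distal peaks without a partner. Peaks without a partner were weaker, with median values of 0.643 and 0.664 against 1.12 and 1.04 for those with one. Outside peaks, runs of such bases were short, with a median width of 4 bp. There were 115 and 127 of them among 287 and 343 runs, and 42 and 65 touched a run of the other library. The share over all runs of the genome was not counted.

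Joined across libraries, the distal peaks made 96 regions, and 52 were shared. Of the shared regions 26 lay upstream and 26 downstream, at a median distance of 14.0 kb from the TSS, and 23 lay within 10 kb. For 35 the nearest protein-coding TSS was the member's own. The middle was intergenic in 42, in an intron in 4, in a UTR in 4 and in a coding exon in 2, and 44 held a footprint in both libraries. These shares were not counted over all shared distal regions of the genome. Regions distal in a single library numbered 16 in replicate 1 and 28 in the other. Of those 28, 3 overlapped a peak that counts as a promoter peak in replicate 1, 1 each at Egr2, Egr4 and Junb. They made up all 5 of Egr2 and outnumbered the shared ones at Jun, Egr1, Egr4 and Npas4, while Fos had 1 among 9.

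**Figure D5:**
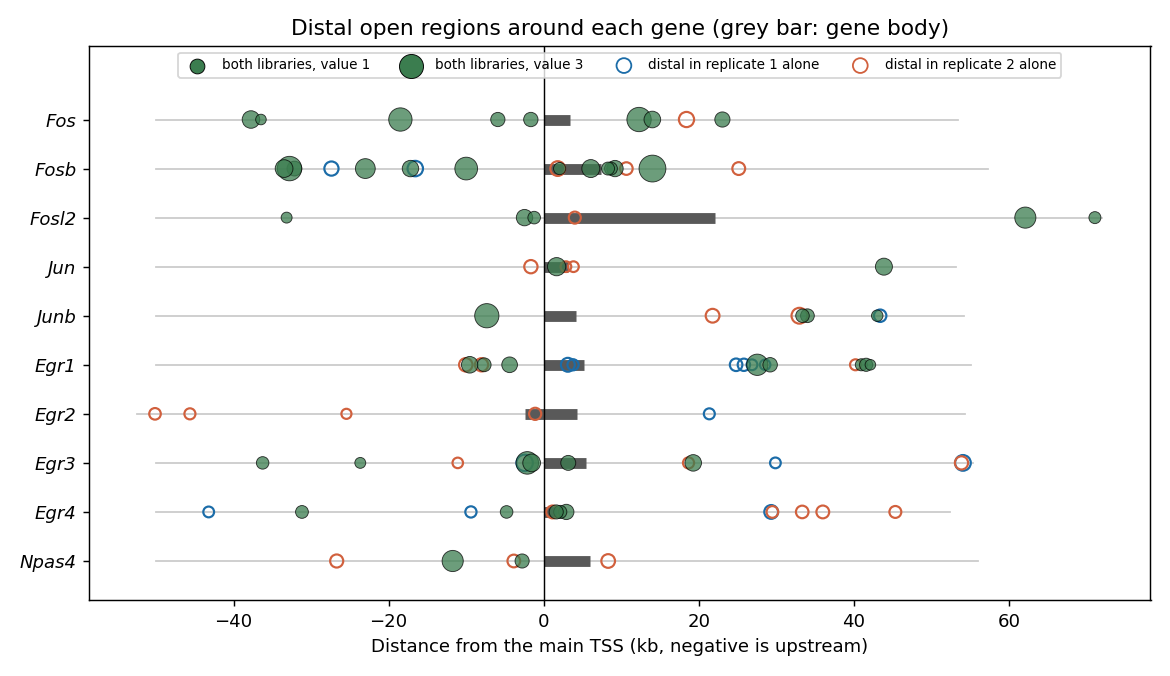
Distal regions by distance from the main TSS (kb, negative upstream), 1 row per gene, with the gene body as a grey bar and circle area growing with the peak value. Filled circles are the 52 regions distal in both libraries and open circles those distal in replicate 1 alone (blue) or in replicate 2 alone (orange), and all 5 circles of Egr2 are open.

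In the middle 200 bases of the 52 shared regions, an EGR site was found in 6 (11.5%), at Egr1, Egr3, Fos, Fosb and Fosl2. Over all distal peaks with a partner the shares were 0.815% and 0.917%. SP sites were in 30.8%, against 10.3% and 10.6%, and the median GC content was 57.75%, against 52.5% in both libraries. The part of GC content in these motif counts was not tested. AP-1 sites were in 5 regions (9.62%), against 6.69% and 6.90%. An SRE was in 1 region (1.92%), at Fos, against 0.728% and 0.774%. NPAS4 sites were in 3 regions (5.77%), against 12.1% and 11.9%. Over the whole width of the shared regions, none (0) of 9 AP-1 sites had their middle base in a footprint in both libraries, or were touched by one in both. Of 11 EGR sites, 1 had its middle base in a footprint in both, and 3 were touched in both. Such shares over all distal peaks were not counted. Over all promoter peaks, 3.78% and 3.17% of AP-1 sites had their middle base in a footprint of the same library. For EGR sites it was 28.9% and 29.8%.

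The genes that work with these factors were nearly all open at their promoters. A promoter peak in both libraries was found for 32 of 33 listed partners, co-regulators, upstream regulators and other immediate early genes, against 63.2% of protein-coding genes as a whole. The exception was Batf, an AP-1 family member of lymphocytes, which had none in either library. All 13 upstream regulators had one, the lowest being Elk3 at 0.558 and 0.580. The highest were the CRE-binding factors Crem at 4.66 and 4.55 and Creb1 at 4.11 and 4.51, and Mef2a at 4.78 and 3.91, while Srf itself had 2.32 and 2.64. Of the AP-1 partners Jund was highest at 3.65 and 3.86, above Fos in both libraries. The EGR co-repressors Nab1 and Nab2 had 1.30 and 0.960 and 1.67 and 1.35. The NPAS4 partners Arnt and Arnt2 had 2.996 and 2.15 and 1.72 and 1.39. Arc, the synaptic immediate early gene, had 3.32 and 3.73. The median over the 32 genes was 2.48 and 2.33, below the members' medians in each library.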

How the data were processed

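DNase-seq was analysed in 2 libraries of 1 group. Per the labels and the list of files deposited with each library, the authors made peaks, footprints and FDR runs from that library's own alignments to mm10. The aligner, callers, versions and filters, like the handling of CAST reads, were not given in the sources used here. Peak values are the authors' deposited signal, with no stated scaling. The FDR is the authors' p-value type column, listed under 0.05. The footprint file's constant column was not used.

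Peaks of the longer of the authors' lists were placed against GENCODE M21 and sequence against GRCm38 (the build of mm10) and RefSeq promoters, with Python 3.11.15, numpy 2.4.6, pandas 2.3.3 and pysam 0.24.0, and drawn with matplotlib 3.10.9. Interval and motif code was tested on simulated data. All 10 members are described. Of their shared distal regions, the text names the strongest and those farthest upstream and downstream, and of the partner lists the genes without a promoter peak and the 3 strongest; others were chosen after their values were seen. Members and lists were chosen with earlier results of these data known. The main TSS values, GC content, motifs of distal regions and motifs in promoter peaks were added after the data were seen, as were the joined peaks. A motif site counts as under a footprint when its middle base (the right of both in sites of even length) lies in one, or, where said, when any base does. With 1 group there is no test. Alternatives were the stricter peak list, each library alone, other windows, overlaps and footprint rules. A gene of the marker list is counted but not reported here by name.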

Additional observations from a re-analysis of the deposited data

How the results depend on the processing

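The depth behind each value is unknown. The only spread is set by 2 libraries that share a donor entry and differ at sex-linked genes. Of 46 alternatives, 32 left a value within the spread between libraries or a count within 1.5 times, and 14 did not. All 10 promoters had a peak in both libraries under each alternative run. Of the 33 partner and regulator genes, 32 had one, and 29 did with the stricter list (chosen after seeing the data). The median number of distal peaks per window, 7.75 over both libraries, was 4.25 with the stricter list, 6.25 with peaks joined across gaps of up to 150 bp (chosen after seeing the data), 9.75 and 5 with promoter windows of 0.5 and 2.5 kb, and 3.5 and 10.75 with 10 and 100 kb beside the gene. Leaving out each replicate gave 7.5 to 8. The median over all genes was not computed with the stricter list, joined peaks or other windows. The median distance of distal peaks to the TSS moved from 17164.5 bp to 3238 and 32156 bp with 10 and 100 kb beside the gene, since the window bounds it. Partnered distal peaks fell from 74.1% to 46.3% with a reciprocal overlap of 50%. Motif sites under a footprint fell from 18.7% to 11.0% when the whole site had to lie inside, and rose to 29.7% when any base counted (chosen after seeing the data). Distal peaks without a partner that touched a run of the other library numbered 8, and 4 of the 13 in the stricter list (chosen after seeing the data). With 500 bases before and 100 after the start, member promoters with an AP-1 site went from 0 to 1 and with an SRE from 1 to 3. No paired analysis was possible because there is 1 group.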
